A study of Mus musculus with 16 samples.

Results

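The left ventricle of mice without TFEB in their cardiomyocytes was compared with that of control mice, both after sham surgery. All 4 libraries of each group were taken, 8 of the 16 libraries in the series, and every gene with enough counts was tested. The mice of the first group are labelled cKO-TFEB, a knockout restricted to cardiomyocytes, and those of the second WT, and all are of the C57/BL6N strain. Sham surgery means that the ventricle had no added pressure load. The other 8 libraries come from cKO and WT mice after transverse aortic constriction (TAC). This narrowing of the aorta makes the ventricle pump against pressure. The TAC libraries serve here for the same genotype contrast, and they also enter the shared fit that estimates the spread between libraries. The labels do not name the Cre line, the exons removed, or the age, sex and time after surgery. The design text calls the 4 libraries of a group biological replicates. The series title names lysosomal capacity and mitochondrial function, and the sham contrast asks how the ventricle differs without TFEB before any overload.

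TFEB is a transcription factor of the MiT/TFE family, to which TFE3 and MITF also belong. When nutrients are plentiful, the kinase complex mTORC1 on the lysosome phosphorylates TFEB and keeps it in the cytosol. After starvation or lysosomal stress it enters the nucleus and binds the CLEAR element, a motif built around the E-box CACGTG, in genes of lysosomal enzymes, the vacuolar proton pump and autophagy. In the heart these pathways are known for clearing damaged mitochondria and proteins.

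The 8 sham libraries held 13575043 to 16051182 counts, with mitochondrially encoded genes at 23.5% ± 2.12 of counts in WT and 22.6% ± 1.02 in cKO (SD, n = 4). Every WT sham library was shallower than every cKO sham library (exact permutation p = 0.0286, the smallest that 4 against 4 can give, and 0.143 adjusted over 15 library measures). Levels below are CPM, counts divided by the library total, with TMM factors between libraries. Cardiomyocyte markers were at similar summed levels (71000 ± 5100 CPM in WT and 70300 ± 5370 CPM in cKO). Nppa is among them, and this total does not separate ventricular from atrial muscle. Transcripts of atrial muscle set some WT libraries apart: Myl4, Myl7, Sln and Bmp10 summed to 5.73, 249, 2390 and 130 CPM in WT sham replicates 1 to 4. In cKO sham the same sum was 4.17, 22.8, 6.84 and 4.77 CPM. Replicate 3 of WT sham thus stood highest, and replicates 2 and 4 lay above all cKO sham libraries. Results were therefore also computed with this sum as a covariate, entered as log2 of its CPM plus 1. This form is meant wherever the atrial covariate or the atrial sum as a covariate is named.

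The knockout was visible in the targeted transcript. Tfeb (ENSMUSG00000023990) had levels of 30.9, 37.3, 40.1 and 37.5 CPM in the WT libraries and of 10.0, 9.11, 9.67 and 13.0 CPM in the cKO libraries. No library of one group reached the range of the other. The log2 fold change was -1.80 (SE 0.20, edgeR quasi-likelihood test, adjusted p = 0.000604), which leaves 0.287 of the WT level. Other heart cells also express Tfeb, and in bulk tissue fewer expressing cells and less RNA per cell cannot be told apart. The paralogs Tfe3 (16.6 to 19.8 CPM in WT and 17.2 to 19.9 CPM in cKO, log2 -0.03, adjusted p = 0.921) and Mitf (log2 -0.24, adjusted p = 0.371) did not pass the threshold of 0.05. Among the 20 tested genes on each side of Tfeb on its chromosome, 0 of 40 passed.

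No gene of the lysosome or autophagy lists passed under sham. The lists comprised 49 lysosomal hydrolases (median log2 0.10), 23 lysosomal membrane proteins (0.06), 18 subunits of the vacuolar ATPase that acidifies the lysosome (0.06), 48 genes of autophagy machinery and receptors (0.03) and 11 mitophagy genes (0.01). The median over all 15206 tested genes was -0.01. At an unadjusted p under 0.05, 5 hydrolases were higher and 0 lower, and 2 autophagy genes lay on each side. Of all tested genes 15% had such a p in either direction. Lamp1, a structural protein of the lysosomal membrane, was at 362 to 387 CPM in WT and 383 to 410 CPM in cKO (log2 0.07, SE 0.08, adjusted p = 0.704). The autophagy receptor Sqstm1 was at 423 to 506 CPM in WT and 494 to 637 CPM in cKO, so that the groups overlapped (log2 0.25, SE 0.10, adjusted p = 0.259). Map1lc3b, which coats autophagosomes, differed by 0.01 (SE 0.08, adjusted p = 0.971). The protease Ctsd was at 1010, 517, 504 and 537 CPM in WT and 604, 689, 788 and 591 CPM in cKO, with replicate 1 of WT far above the rest (log2 0.06, SE 0.18, adjusted p = 0.921). The 22 genes of the Rag, Ragulator, folliculin and mTORC1 list had a median of -0.03 and 0 members past the threshold. These lists do not hold every gene known from lysosomes. Outside them, and chosen after their values were seen, Pld3 (log2 0.47, adjusted p = 0.0281) and Abca2 (log2 0.39, adjusted p = 0.0296) were called higher. Other called genes outside the lists were not sorted by organelle.

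Across all tested genes, 178 of 15206 (1.17%) passed at an adjusted p under 0.05 and are described as called. Of these, 94 were higher in cKO (0.618%) and 84 lower (0.552%). Libraries of both groups did not overlap for 173 of the 178, beside 7.59% of all tested genes. Absolute log2 fold changes ran from 0.32 to 4.64, and 68 genes exceeded 1. At an unadjusted p under 0.05 the count was 2284 genes (15% of those tested), both directions together. These shares over all tested genes stand beside every count of list members in the text. The number called rested on single libraries: it was 79 without WT sham replicate 4, 114 without cKO sham replicate 1, 96 without cKO sham replicate 2 and 59 without cKO sham replicate 4. With the atrial sum as a covariate 110 genes were called, 66 of them among the 178. Of the 67 called genes named by the rule for naming genes, 67 kept their direction under all 17 alternatives, and 19 stayed past the threshold under every one, among them Asns, Bcl2, Cep128, Cnksr1, Dmd, Dpyd, Ehd4, Immp2l, Klhl3, Maob, Mthfd2, Myc, Phgdh, Phlda3, Ppp2r3a and Tfeb. With the atrial covariate 38 of the 67 lost their call (adjusted p = 0.0507 to 0.191): AI593442, Abca12, Ackr4, Adamtsl5, Aen, Amy1, Angpt1, Atf5, Cabcoco1, Ccl9, Cd151, Clcn1, Edn3, Efnb3, Fbp2, Foxo6, Hmgcs1, Ier3, Iigp1, Mars, Mt2, Ndrg4, Nudt4, Obsl1, P4hb, Pdlim4, Pdp1, Perp, Plin3, Prlr, Sec14l5, Sema6c, Slc16a1, Slc39a8, Slc7a5, Tent5b, Trib3 and Uchl1. Leaving out 1 library ended the call of 45 of the 67, of 43 without cKO sham replicate 4, 36 without WT sham replicate 4 and 33 without cKO sham replicate 2. The other 5 libraries ended 13 to 24 calls each. Aen and Foxo6 lost theirs without each of the 8 libraries, and AI593442, Efnb3, Sec14l5, Sema6c and Socs3 without 7 of them. For each of the 45 the adjusted p without 1 to 3 such libraries is given below, and others may end the call too.

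**Figure D1:**
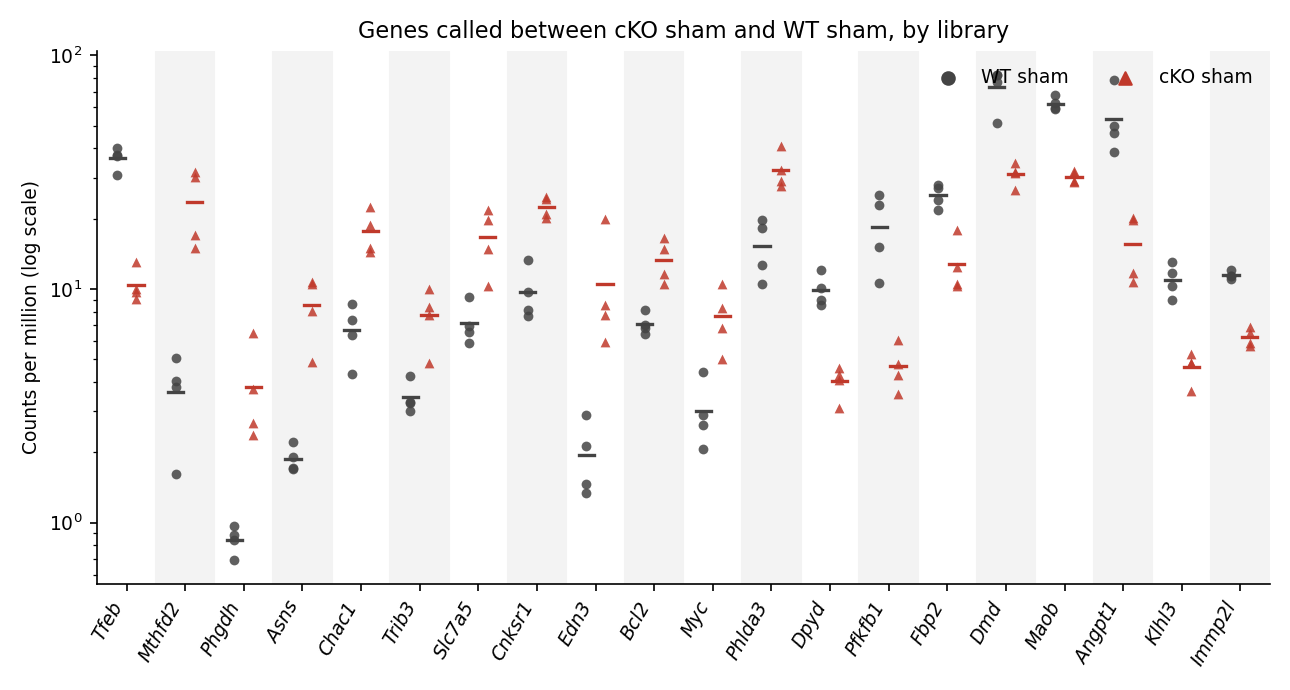
CPM (log axis) of 20 called genes in each of the 4 WT sham (circles) and 4 cKO sham (triangles) libraries, with a bar at each group mean. For all 20 genes the libraries of both groups lie apart, with Dmd at 34.6 CPM or less in every cKO library and Cnksr1 at 20.1 CPM or more there. For most of these genes the lack of overlap was a condition of being named, so it is no separate result.

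Large rises were found in enzymes that make serine, one-carbon units and asparagine. Mthfd2, a mitochondrial folate enzyme that is low in most adult tissues, was at 4.05, 3.8, 5.09 and 1.62 CPM in WT and 15.0, 30.2, 17.0 and 31.8 CPM in cKO. Every cKO library exceeded every WT library, and the fold change was 6.44 (log2 2.69, SE 0.34, adjusted p = 0.00117). Asns, asparagine synthetase, was at 1.91, 1.71, 2.21 and 1.70 CPM in WT and 4.88, 10.5, 8.03 and 10.7 CPM in cKO (4.51-fold, SE 0.31 log2, adjusted p = 0.0015). Phgdh, the first enzyme of serine synthesis, was at 0.695 to 0.969 CPM in WT and at 2.67, 3.75, 2.38 and 6.49 CPM in cKO (4.47-fold, SE 0.33 log2, adjusted p = 0.00288). For each of the 3 enzymes the lowest cKO library lay above the highest WT library. They were the 3 called among 22 tested genes of serine, one-carbon, asparagine and proline synthesis, whose median was 0.14. Psat1, the next enzyme of serine synthesis, was at 1.39 to 4.21 CPM in WT and 1.95 to 8.40 CPM in cKO (log2 1.11, SE 0.45, adjusted p = 0.243), and Pycr1 of proline synthesis stood at log2 0.92 (adjusted p = 0.0989).

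Genes of the integrated stress response, in which phosphorylation of eIF2 raises translation of ATF4 and its target genes, gave 3 higher and 0 lower of 23 tested (median 0.18). Estimates in this list ran from -1.76 to 2.12, with 7 higher and 2 lower at an unadjusted p under 0.05. Under TAC 1 of its members was called higher and 2 lower. Chac1, which degrades glutathione, was at 8.63, 7.38, 6.35 and 4.32 CPM in WT and 15.0, 14.4, 18.8 and 22.5 CPM in cKO (2.65-fold, SE 0.29 log2, adjusted p = 0.024). Trib3, a pseudokinase, was at 3.01 to 4.25 CPM in WT and 4.83 to 10.0 CPM in cKO (2.25-fold, adjusted p = 0.024). Atf5, a transcription factor of the same response, rose 1.65-fold (adjusted p = 0.0359) although its libraries overlapped, with WT replicate 1 at 86.7 CPM and cKO replicate 1 at 85.4 CPM. The messenger of ATF4 itself was at 70.8 to 83.3 CPM in WT and 81.5 to 91.1 CPM in cKO (log2 0.17, SE 0.09, adjusted p = 0.412). Ddit3, which encodes CHOP, did not pass either (log2 0.19, adjusted p = 0.637). Of the secreted signals of this response, Gdf15 was at 1.22, 2.01, 1.62 and 1.31 CPM in WT and 3.32, 7.56, 8.77 and 7.32 CPM in cKO, without overlap but above the threshold (log2 2.12, SE 0.52, adjusted p = 0.0658). Gdf15 passed in the fit of the sham groups alone and in the DESeq2 Wald test (adjusted p = 0.00285). Fgf21 had 0 counts in all 4 WT sham libraries and 4, 10, 0 and 6 counts in cKO sham, too few to be tested.

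Amino acid uptake and loading onto tRNA were next to these. Slc7a5, the light chain of the leucine transporter, was at 5.88, 6.93, 9.22 and 6.56 CPM in WT and 14.9, 19.8, 10.3 and 21.8 CPM in cKO (2.34-fold, SE 0.25 log2, adjusted p = 0.024). It was the 1 gene called among 20 tested amino acid transporters (median 0.27). Of 20 cytosolic aminoacyl-tRNA synthetases, Mars rose 1.30-fold (45.6 to 52.4 CPM in WT and 59.2 to 65.1 CPM in cKO, adjusted p = 0.0281) and the others did not pass. In that list 19 of 20 estimates were positive, with a range of -0.01 to 0.38 and a median of 0.12, and 9 had an unadjusted p under 0.05. In the list of chaperones of the endoplasmic reticulum, P4hb, a disulfide isomerase, rose 1.34-fold (adjusted p = 0.027), and it was the 1 called of 24 tested (median 0.06). Exons of Mars overlap those of Ddit3, and exons of Atf5 those of Nup62, and since strandedness is not stated the reads of such pairs cannot be told apart. Without cKO sham replicate 4 the adjusted p rose to 0.0859 for Chac1, 0.0977 for Trib3, 0.127 for Atf5, 0.0874 for Slc7a5, 0.0988 for Mars and 0.071 for P4hb. Without WT sham replicate 4 it was 0.0787, 0.079, 0.12, 0.0811, 0.0951 and 0.0869 for the same 6 genes.

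Promoters of the genes above were searched for TGATGNAA, the centre of the CARE element that ATF4 binds, because 3 of these genes hold it and others of the group do not. The window runs from 250 bases before to 50 bases after the RefSeq start, in build GRCm38.p6, and capitals mark the match, on either strand. The gene's own strand is the minus strand for Asns, Trib3 and Mthfd2 and the plus strand for Chac1. The match begins at -23 in Asns, at -193 in Chac1 and at 14 in Trib3, counted from the start. Mthfd2 is shown because it rose more than the other genes of this group, and its window holds no match.
Asns (chr6:7693160-7693459): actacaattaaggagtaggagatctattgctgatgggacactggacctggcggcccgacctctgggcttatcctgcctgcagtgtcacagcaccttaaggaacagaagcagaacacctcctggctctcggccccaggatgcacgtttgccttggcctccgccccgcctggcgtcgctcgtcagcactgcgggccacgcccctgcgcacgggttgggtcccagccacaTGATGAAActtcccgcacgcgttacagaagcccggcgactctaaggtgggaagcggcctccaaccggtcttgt
Chac1 (chr2:119350992-119351291): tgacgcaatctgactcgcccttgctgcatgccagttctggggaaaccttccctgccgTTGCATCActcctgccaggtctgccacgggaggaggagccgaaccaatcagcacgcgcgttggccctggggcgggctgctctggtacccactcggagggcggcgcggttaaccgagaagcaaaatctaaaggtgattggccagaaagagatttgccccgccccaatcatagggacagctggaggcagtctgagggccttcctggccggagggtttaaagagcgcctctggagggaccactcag
Trib3 (chr2:152344011-152344310): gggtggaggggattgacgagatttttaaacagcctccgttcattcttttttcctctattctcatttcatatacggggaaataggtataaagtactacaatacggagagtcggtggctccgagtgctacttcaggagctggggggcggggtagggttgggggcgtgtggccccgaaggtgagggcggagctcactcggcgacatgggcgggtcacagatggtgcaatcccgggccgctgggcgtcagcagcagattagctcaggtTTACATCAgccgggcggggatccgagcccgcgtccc
Mthfd2 (chr6:83317555-83317854): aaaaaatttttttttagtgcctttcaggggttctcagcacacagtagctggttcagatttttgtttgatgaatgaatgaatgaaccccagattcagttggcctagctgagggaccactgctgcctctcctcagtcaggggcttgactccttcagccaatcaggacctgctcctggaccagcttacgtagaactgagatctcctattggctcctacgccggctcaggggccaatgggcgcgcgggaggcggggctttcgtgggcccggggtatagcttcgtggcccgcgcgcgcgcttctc

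A promoter was found for 137 of the 178 called genes and for 10854 tested genes. TGATGNAA stood in 4 of 70 promoters of genes called higher (5.71%: Asns, Car11, Chac1 and Trib3), in 2 of 67 called lower (2.99%) and in 2.81% of all tested. Asns, Chac1 and Trib3 prompted the search, so the share among genes called higher is not independent of that choice. Control by ATF4 was not tested. The windows of Phgdh and Atf5 held none. The E-box CACGTG stood in 8.57% of promoters called higher, 7.46% of those called lower and 11.5% of all tested. For the longer CLEAR centre TCACGTGA, which contains the E-box, the shares were 0 of 70, 1 of 67 (Ube4b) and 2.07%. Over all promoters in the table the shares were 7.15% for CACGTG, 0.974% for TCACGTGA and 3.97% for TGATGNAA.

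Control of fructose bisphosphate involves kinases that drive glycolysis and phosphatases that reverse it. Pfkfb1, a kinase and phosphatase that sets fructose 2,6-bisphosphate, was at 25.4, 15.1, 10.6 and 22.9 CPM in WT and 4.30, 3.55, 4.76 and 6.08 CPM in cKO (0.253 of WT, SE 0.38 log2, adjusted p = 0.0209). Fbp2, the muscle fructose bisphosphatase, was at 27.2, 21.8, 24.0 and 28.0 CPM in WT and 10.3, 10.5, 17.9 and 12.4 CPM in cKO (0.504 of WT, SE 0.20 log2, adjusted p = 0.0203). Both fell without overlap between the groups. They were the 2 called lower of 21 tested genes of fructose bisphosphate control and glycogen (median -0.03). Pdp1, the phosphatase that activates pyruvate dehydrogenase, fell to 0.620 of WT (adjusted p = 0.0271), and Amy1, an amylase, to 0.476 (adjusted p = 0.0239). Slc16a1, a carrier of lactate and ketone bodies, rose 1.35-fold (218 to 258 CPM in WT and 293 to 368 CPM in cKO, adjusted p = 0.0371) and was the 1 called of 21 genes of glycolysis and glucose uptake. Leaving out cKO sham replicate 4 gave an adjusted p of 0.0513 for Pfkfb1, 0.0741 for Fbp2, 0.0929 for Pdp1, 0.0859 for Amy1 and 0.0929 for Slc16a1. Exons of Pfkfb1 overlap those of Apex2, which was also called lower, and those of Amy1 overlap Rnpc3.

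Nuclear genes of the respiratory chain had small negative estimates, and 0 passed the threshold. Of 37 complex I subunits 1 estimate was positive (median -0.17, range -0.37 to 0), and of 40 subunits of complexes II to V 0 were positive (median -0.21, range -0.47 to -0.05). At an unadjusted p under 0.05, 0 of the first list and 3 of the second were lower. Without WT sham replicate 1 the medians were -0.06 and -0.10. Fatty acid uptake and oxidation, with 35 tested genes, had a median of -0.25, a range of -1.47 to 1.06 and 0 called. At an unadjusted p under 0.05, 13 were lower and 2 higher, beside 15% of all tested genes in either direction. Among them Decr1, an enzyme of unsaturated fatty acid oxidation, was at 354 to 393 CPM in WT and 269 to 305 CPM in cKO (log2 -0.41, adjusted p = 0.107). Ppargc1a, the coactivator that drives mitochondrial biogenesis, was at 67.9, 331, 74.0 and 99.6 CPM in WT and 151, 77.5, 74.9 and 105 CPM in cKO. WT replicate 2 stood apart, and the log2 estimate was -0.49 (adjusted p = 0.645) with it and 0.34 without it.

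Single mitochondrial genes did pass. Immp2l, a peptidase of the inner membrane, was at 11.0, 12.1, 11.4 and 11.4 CPM in WT and 5.73, 6.85, 6.47 and 5.87 CPM in cKO (0.544 of WT, SE 0.12 log2, adjusted p = 0.00117). Bckdhb, a subunit of the dehydrogenase that commits branched-chain amino acids to breakdown, was at 74.1, 75.8, 57.0 and 74.8 CPM in WT and 47.4, 34.6, 48.2 and 43.9 CPM in cKO (0.618 of WT, adjusted p = 0.0144). Both fell in every cKO library below the lowest WT library. Of the 22 genes of branched-chain amino acid and ketone metabolism Bckdhb was the 1 called, and 1 estimate was positive (median -0.24). At an unadjusted p under 0.05, 11 were lower, beside 15% of all tested genes in either direction. Dbt, the next subunit of the same complex, was at log2 -0.47 (adjusted p = 0.0574) and Oxct1, which activates ketone bodies, at -0.40 (adjusted p = 0.0786). Hmgcs1, an enzyme of cholesterol synthesis, fell to 0.783 of WT (adjusted p = 0.0341), and Plin3, a coat protein of lipid droplets, rose 1.37-fold (adjusted p = 0.0272). Without cKO sham replicate 4 the adjusted p was 0.0516 for Bckdhb, 0.125 for Hmgcs1 and 0.0898 for Plin3.

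**Figure D2:**
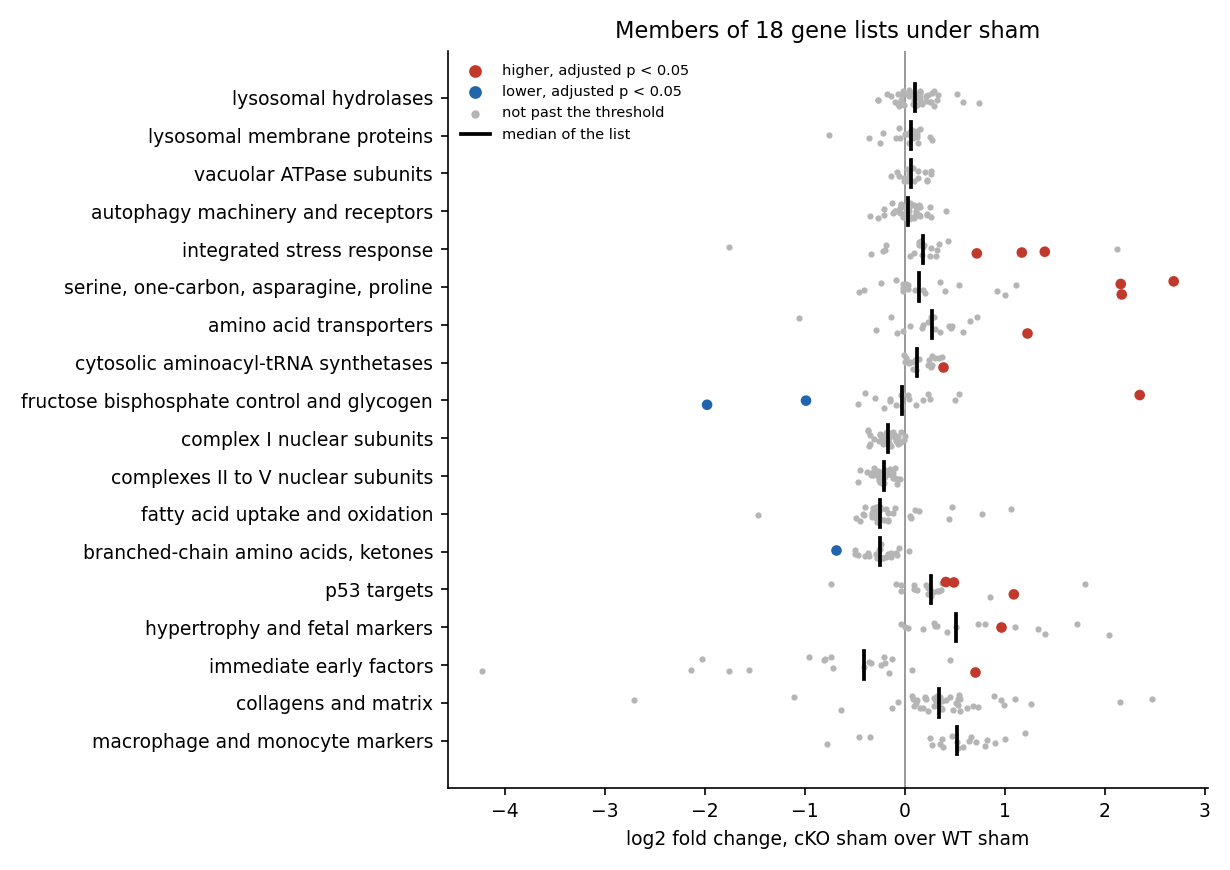
Each point is 1 tested gene of 18 gene lists, placed by its log2 fold change between cKO sham and WT sham. Coloured points passed at an adjusted p under 0.05 and black bars are list medians. The lysosome and autophagy lists hold no coloured point, and the serine list holds 3, between 2.16 and 2.69.

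Dmd had the smallest adjusted p of the comparison. Dystrophin links the actin cytoskeleton of muscle cells to the membrane and matrix, and its gene spans 2260 kb. Its level was 51.2, 76.8, 82.1 and 82.5 CPM in WT and 34.6, 31.7, 26.6 and 31.4 CPM in cKO. Every cKO library lay below every WT library, and the level fell to 0.425 of WT (log2 -1.23, SE 0.14, adjusted p = 0.000564). Sntb1, a syntrophin that binds dystrophin, rose from 3.71 ± 0.966 to 9.89 ± 1.85 CPM (SD, n = 4; 2.66-fold, adjusted p = 0.0146). Obsl1, a cytoskeletal adaptor of the sarcomere, rose 1.28-fold (adjusted p = 0.0414), and Pdlim4, a protein that binds actinin, fell to 0.479 of WT (adjusted p = 0.0227). Without cKO sham replicate 4 the adjusted p was 0.136 for Obsl1 and 0.0859 for Pdlim4. Of 30 contraction genes and 22 calcium handling genes 0 passed (medians 0.10 and -0.12).

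Among ion channels, the muscle chloride channel Clcn1 was at 10.9, 14.2, 19.6 and 20.6 CPM in WT and 3.91, 2.78, 6.99 and 2.76 CPM in cKO (0.25 of WT, SE 0.36 log2, adjusted p = 0.0133, and 0.0596 without cKO sham replicate 4). Ano10, a membrane protein of the anoctamin family, fell to 0.387 of WT (124, 69.5, 43.7 and 55.8 CPM against 31.3, 22.6, 32.6 and 26.9 CPM, adjusted p = 0.0157, and 0.0655 without cKO sham replicate 4). These 2 were the called members of 8 tested chloride channels and exchangers (median -0.16). Klhl3, an adaptor that targets WNK kinases for degradation, fell to 0.424 of WT (8.95 to 13.0 CPM against 3.68 to 5.28 CPM, SE 0.20 log2, adjusted p = 0.00366). Exons of Clcn1 overlap those of Fam131b.

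Single ligands and receptors of vascular and hormonal signalling were called, and whether any of them act together was not tested. Edn3, a ligand of the endothelin family, was at 2.14, 1.34, 2.88 and 1.47 CPM in WT and 5.93, 19.9, 7.73 and 8.57 CPM in cKO. Replicate 2 of cKO was the highest, and all 4 exceeded WT (5.37-fold, SE 0.42 log2, adjusted p = 0.0126). The adjusted p of Edn3 was 0.0563 with the atrial covariate and 0.0589 in limma voom. Ednra, the endothelin receptor of muscle cells, was at 35.2, 43.4, 57.4 and 29.8 CPM in WT and 96.4, 62.5, 69.6 and 68.2 CPM in cKO (1.79-fold, adjusted p = 0.018). Maob, which degrades monoamines on the outer mitochondrial membrane, was at 67.4, 59.7, 62.7 and 58.8 CPM in WT and 28.8, 32.1, 31.3 and 29.0 CPM in cKO (0.488 of WT, SE 0.18 log2, adjusted p = 0.00821). These were the 2 genes called higher and the 1 called lower of 16 tested in the adrenergic, endothelin and angiotensin list, whose median was 0.01. Edn1, the main endothelin of vessels, did not pass (log2 0.27, adjusted p = 0.617). The call of Ednra was lost without WT sham replicate 1 (adjusted p = 0.055), WT sham replicate 4 (0.0528) and cKO sham replicate 1 (0.0502).

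Angpt1, the angiopoietin that stabilises vessels through the receptor TEK, was at 46.5, 50.1, 78.6 and 38.5 CPM in WT and 10.7, 20.1, 19.8 and 11.7 CPM in cKO. The ranges lay apart, and the level fell to 0.291 of WT (SE 0.32 log2, adjusted p = 0.0146, and 0.0652 without cKO sham replicate 4). Efnb3, a membrane-bound ephrin ligand, fell to 0.460 of WT (103 to 162 CPM against 54.0 to 65.5 CPM, adjusted p = 0.0414). Both belong to the list of angiopoietin, VEGF and ephrin signalling, of which 2 of 24 were lower, 0 higher, and the median was -0.09. The semaphorin Sema6c fell to 0.475 of WT (adjusted p = 0.0468) and the prolactin receptor Prlr to 0.430 (6.26 to 8.19 CPM against 2.00 to 3.84 CPM, adjusted p = 0.0302). The calls of Efnb3, Sema6c and Prlr were lost without cKO sham replicate 2 (adjusted p = 0.122, 0.145 and 0.1) and without WT sham replicate 4 (0.0787, 0.0949 and 0.073).

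Regulators of growth and survival were among the rises. Myc, which drives ribosome production and cell growth, was at 2.90, 4.40, 2.07 and 2.63 CPM in WT and 5.01, 8.34, 6.84 and 10.5 CPM in cKO (2.55-fold, SE 0.23 log2, adjusted p = 0.00651). It was the 1 called of 26 genes of the MYC network and ribosome biogenesis (median 0.08). Bcl2, which blocks apoptosis at the mitochondrion, was at 6.41 to 8.11 CPM in WT and 10.5 to 16.5 CPM in cKO (1.89-fold, adjusted p = 0.00366), and the remaining 15 tested members of its family did not pass. Phlda3, a p53 target that inhibits AKT, was at 19.7, 12.7, 18.2 and 10.5 CPM in WT and 27.7, 32.4, 41.0 and 28.9 CPM in cKO (2.12-fold, adjusted p = 0.00771). Perp (1.33-fold, adjusted p = 0.0265), a desmosomal membrane protein, and the nuclease Aen (1.41-fold, adjusted p = 0.0341) were the other p53 targets called. That list had 3 called higher of 23 tested (median 0.26), beside 0.618% of all tested genes. Mdm2 was at log2 0.25 (adjusted p = 0.123) and Cdkn1a at 0.85 (adjusted p = 0.244). Without cKO sham replicate 4 the adjusted p was 0.0859 for Perp, and without cKO sham replicate 2 it was 0.106 for Aen.

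Socs3, the feedback inhibitor of gp130 cytokine signals, rose from 6.32 ± 1.03 to 12.4 ± 3.87 CPM (SD, n = 4; 1.96-fold, adjusted p = 0.0429), the 1 called of 13 genes of that pathway. Metal handling moved on both sides: the metallothionein Mt2 was at 0.772 to 2.39 CPM in WT and 3.72 to 9.26 CPM in cKO (4.14-fold, adjusted p = 0.0357), while the zinc importer Slc39a8 was at 0.917 to 2.14 CPM in WT and 0.195 to 0.743 CPM in cKO (0.304 of WT, adjusted p = 0.0468). The other 8 of 10 tested genes of this list did not pass. Ier3, an early response gene that protects from apoptosis, rose 1.63-fold (21.4 to 27.0 CPM against 30 to 47 CPM, adjusted p = 0.0126, and 0.0608 with the atrial covariate). Without cKO sham replicate 2 the adjusted p was 0.14 for Socs3, 0.0968 for Mt2 and 0.0855 for Slc39a8.

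Markers of ventricular load had mostly positive estimates, and 1 of 17 passed. Uchl1, a ubiquitin hydrolase, was at 16.8, 11.9, 12.9 and 10.9 CPM in WT and 21.4, 28.9, 26.5 and 25.1 CPM in cKO (1.94-fold, adjusted p = 0.0281). Its call was lost without 6 of the 8 libraries, with an adjusted p of 0.0965 without WT sham replicate 4, 0.0859 without cKO sham replicate 4 and 0.0855 without cKO sham replicate 2. The list had a median of 0.51, 16 positive estimates and 8 genes higher at an unadjusted p under 0.05. Such a p was found in 15% of all tested genes, both directions together. The natriuretic peptide Nppb was at 32.4, 101, 223 and 120 CPM in WT and 284, 462, 449 and 373 CPM in cKO. No library overlapped, and the log2 fold change was 1.72 (SE 0.42, adjusted p = 0.0725). Nppa, made by atria and by loaded ventricles, was at 14.1, 49.1, 1220 and 54.8 CPM in WT and 261, 670, 495 and 480 CPM in cKO. The high WT library is the one with the most atrial transcripts. With it the log2 estimate was 0.51 (adjusted p = 0.873), and without it the adjusted p was 0.0153 for Nppa at a log2 of 3.60 and 0.0157 for Nppb. Myh7, the slow myosin of the fetal ventricle, was at 361, 447, 291 and 305 CPM in WT and 580, 796, 432 and 639 CPM in cKO (log2 0.80, SE 0.28, adjusted p = 0.171).

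Ankrd1, a stretch-responsive protein of the sarcomere that was chosen after its values were seen, was at 393, 685, 1380 and 700 CPM in WT and 1210, 2270, 2590 and 1850 CPM in cKO (log2 1.33, adjusted p = 0.0575). Immediate early factors pointed the other way, with a median of -0.41 over 21 tested. Fosb, also chosen after its values were seen, was at 7.56, 5.81, 1.25 and 31.7 CPM in WT and 0.391, 1.10, 0.223 and 0.691 CPM in cKO (log2 -4.23, SE 0.95, adjusted p = 0.0504). In that list Ier3 was called higher, 0 were called lower, and 9 were lower at an unadjusted p under 0.05. The WT libraries differed widely among themselves: Nr4a1, chosen in the same way, was at 171, 126, 21.0 and 254 CPM in WT and 42.4, 38.3, 25.4 and 23.2 CPM in cKO (adjusted p = 0.134).

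In the marker lists of other cell types 0 genes were called. Macrophage and monocyte markers summed to 285 to 442 CPM in WT and 410 to 747 CPM in cKO (374 ± 76.5 and 546 ± 143 CPM, SD, n = 4, exact permutation p = 0.0857, 0.257 adjusted). Of the 20 tested markers 17 were positive, and the median was 0.53 (0.35 without cKO sham replicate 2). At an unadjusted p under 0.05, 12 were higher, beside 15% of all tested genes in either direction. Cd163, a scavenger receptor of resident macrophages chosen after its values were seen, was at 14.1, 16.8, 17.6 and 8.73 CPM in WT and 27.4, 40.5, 25.7 and 38.3 CPM in cKO (log2 1.20, adjusted p = 0.0517). Timd4, Cx3cr1 and Aif1 of the same list did not rise. Timd4 was at 1.53, 1.19, 1.55 and 1.47 CPM in WT and 0.912, 1.03, 0.967 and 0.415 CPM in cKO. The called chemokine Ccl9, a product of myeloid cells, rose 2.35-fold (5.48 to 8.65 CPM against 12.3 to 26.9 CPM, adjusted p = 0.024, and 0.071 without cKO sham replicate 4). Outside the marker list, 3 receptors known from macrophages and other myeloid cells were chosen after their values were seen. Msr1 rose 2.23-fold (adjusted p = 0.024), Clec4d 5.85-fold (adjusted p = 0.0281) and Fcgr3 1.73-fold (adjusted p = 0.0356). Clec4d was near the floor, at 0 to 0.295 CPM in WT and 0.669 to 2.07 CPM in cKO. All 3 were highest in cKO sham replicate 2 (5.23, 2.07 and 22.4 CPM), the library with the highest macrophage sum. How these calls hold with single libraries left out was not examined. The part of macrophage content in these rises was not tested. Of 46 collagen and matrix genes 0 passed, 41 were positive and the median was 0.34, or 0.12 without cKO sham replicate 2. Fibroblast markers summed to 2800 ± 462 and 3140 ± 646 CPM (exact permutation p = 0.457) and erythrocyte markers to 635 ± 438 and 326 ± 132 CPM (exact permutation p = 0.143). Adipocyte markers summed to 1.15 to 17.5 CPM in WT and 0.586 to 1.04 CPM in cKO (exact permutation p = 0.0286, 0.143 adjusted), and 1 of 8 reached enough counts to be tested.

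**Figure D3:**
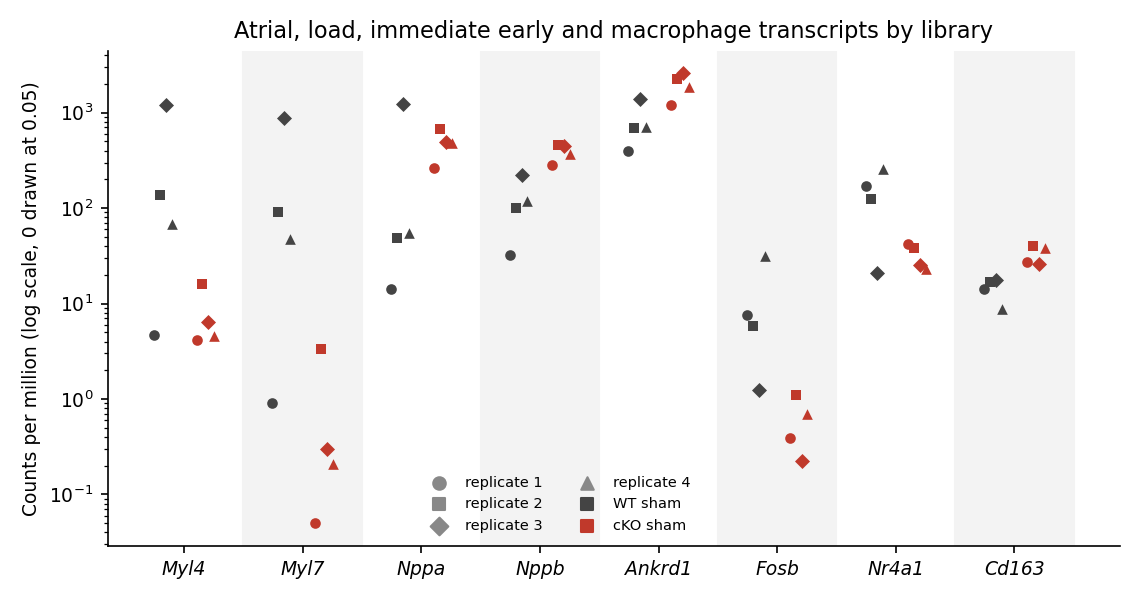
CPM (log axis, with 0 drawn at 0.05) of 8 transcripts in each sham library, WT in grey and cKO in red, the marker shape giving the replicate. WT sham replicate 3 is highest for Myl4, Myl7 and Nppa at 1190, 870 and 1220 CPM, and the WT libraries spread more widely than the cKO libraries for Nppa, Fosb and Nr4a1.

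The remaining large rises covered varied functions. Tent5b, a poly(A) polymerase, was at 0.386 to 1.57 CPM in WT and 3.94 to 8.50 CPM in cKO (6.39-fold, adjusted p = 0.0223). AI593442 rose 3.90-fold (adjusted p = 0.0281), the keratin Krt80 2.35-fold (adjusted p = 0.0259), the chemokine scavenger Ackr4 2.21-fold (adjusted p = 0.024), the lipid transfer protein Sec14l5 2.05-fold (adjusted p = 0.0414) and the tyrosine kinase Ptk2b 2.02-fold (adjusted p = 0.0259). Cnksr1, a scaffold of RAS signalling, was at 8.10, 9.69, 13.3 and 7.65 CPM in WT and 24.3, 20.9, 20.1 and 24.7 CPM in cKO (2.32-fold, SE 0.17 log2, adjusted p = 0.0015). Without WT sham replicate 4 the adjusted p was 0.0711 for Tent5b, 0.0965 for AI593442, 0.0711 for Krt80, 0.0605 for Ackr4, 0.106 for Sec14l5 and 0.0838 for Ptk2b.

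Among the remaining large falls, Dpyd, which starts pyrimidine breakdown, was at 8.55, 8.95, 10.1 and 12.1 CPM in WT and 4.30, 4.59, 4.09 and 3.11 CPM in cKO (0.406 of WT, SE 0.23 log2, adjusted p = 0.00771). Cep128, a protein of the mother centriole, fell to 0.450 of WT (adjusted p = 0.0126). Iigp1, an interferon-inducible GTPase, was at 51.6, 44.7, 45.2 and 107 CPM in WT and 17.8 to 26.6 CPM in cKO (0.355 of WT, adjusted p = 0.0133). It was below WT in every cKO library, while 0 of 34 genes of the interferon response list passed. The lipid transporters Abca4 and Abca12 fell to 0.332 and 0.386 of WT (adjusted p = 0.0137 and 0.0296), the transcription factor Foxo6 to 0.306 (adjusted p = 0.0404) and Cabcoco1 to 0.424 (adjusted p = 0.018). Without cKO sham replicate 4 the adjusted p was 0.0596 for Iigp1, 0.0622 for Abca4, 0.0996 for Abca12, 0.134 for Foxo6 and 0.0741 for Cabcoco1.

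The 10 most abundant called genes showed smaller shifts. Ehd4, which recycles endosomes, was at 460, 553, 547 and 513 CPM in WT and 891, 821, 822 and 846 CPM in cKO (1.63-fold, SE 0.10 log2, adjusted p = 0.00117). Ppp2r3a, a regulatory subunit of protein phosphatase 2A, was at 209 to 298 CPM in WT and 126 to 159 CPM in cKO (0.572 of WT, adjusted p = 0.00434). Ndrg4 rose 1.54-fold (adjusted p = 0.0265), the matrix protein Adamtsl5 1.51-fold (adjusted p = 0.0163) and the tetraspanin Cd151 1.33-fold (adjusted p = 0.021), and the diphosphatase Nudt4 fell to 0.634 of WT (adjusted p = 0.0276). The others of the 10 are P4hb, Obsl1, Plin3 and Slc16a1, given above. Without WT sham replicate 4 the adjusted p was 0.0605 for Adamtsl5 and 0.0764 for Cd151, and without cKO sham replicate 4 it was 0.0859 for Ndrg4 and 0.101 for Nudt4.

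The same genotype contrast was available under TAC in 8 libraries whose group means the sham contrast does not use. They are not fully separate, as the shared fit took its filter and its spread from all 16 libraries. A fit of the sham groups alone shared 109 of the 178 sham calls. There 271 of 15206 genes were called (1.78%), 91 higher (0.598%) and 180 lower (1.18%). Of the 94 genes called higher under sham 87 had a positive estimate under TAC, beside 50.7% of all tested genes, and of the 84 called lower 81 had a negative one, beside 49.3%. Both contrasts had the same sign in 94.4% of the 178 and in 65.9% of all tested genes. None of the 178 was called in the opposite direction. Called in the same direction under both surgeries were 49 genes, which is 27.5% of the sham calls and 18.1% of the TAC calls. The median log2 fold change was 0.77 under sham and 0.44 under TAC for the 94 genes called higher, and -0.92 and -0.54 for the 84 called lower. A smaller size under TAC was found in 162 of the 178, and selection of genes by their sham values favours that. Also called lower under TAC were Dmd (log2 -1.13, adjusted p = 0.000567), Prlr (-1.24, adjusted p = 0.0324) and Clcn1 (-2.76, adjusted p = 0.00808). Tent5b (2.56, adjusted p = 0.0157) and Ackr4 (1.08, adjusted p = 0.0186) were called higher under both. Immp2l had its largest difference under TAC (log2 -1.53, adjusted p = 3.27e-06) against -0.88 under sham.

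The difference between both contrasts was itself tested, and 0 of 15206 genes (0%) passed in edgeR at an adjusted p under 0.05. DESeq2 called 3 genes, and 716 genes (4.71%) had an unadjusted p under 0.05. Among the 178 sham calls 54 had an unadjusted interaction p under 0.05, and their choice by the sham values bears on that count. Cnksr1, 2.32-fold higher under sham, was at a log2 of 0.09 under TAC, with an unadjusted interaction p of 0.000158. Socs3 was at -0.52 beside 0.97, with an unadjusted interaction p of 0.00015. None of the named genes had an adjusted interaction p under 0.801, so these differences between surgeries did not pass the correction. Mthfd2 (1.53, adjusted p = 0.0303) was called under TAC, and Asns (1.11, adjusted p = 0.053), Phgdh (0.96, adjusted p = 0.089), Chac1 (0.95, adjusted p = 0.0996) and Trib3 (0.73, adjusted p = 0.113) were not. The TAC count moved from 13 to 912 when single TAC libraries were left out, the lowest without WT TAC replicate 2 and the highest without cKO TAC replicate 3.

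**Figure D4:**
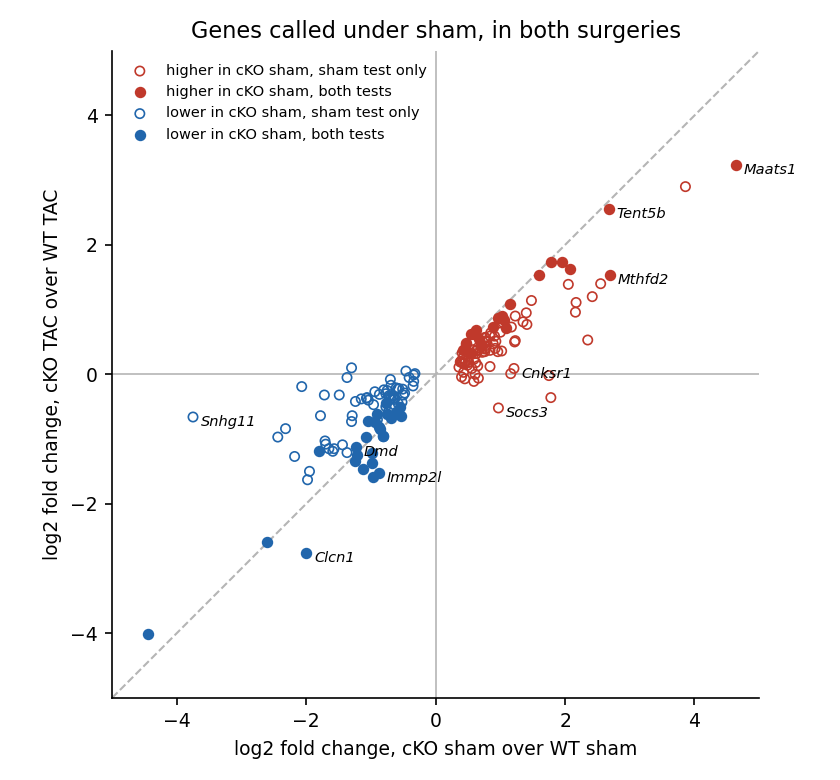
Log2 fold change of cKO over WT under sham (horizontal axis) and under TAC (vertical axis) for the 178 genes called under sham, with filled points for the 49 also called under TAC and a dashed line of equality. Most points lie between the line and the horizontal axis, and Cnksr1 lies near that axis and Socs3 across it.

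Genes called lower were long. Their median span from first to last annotated base was 106 kb, against 22.7 kb for genes called higher and 21.4 kb for all tested genes. A span over 200 kb was found in 20 of the 84 called lower (23.8%), in 6 of the 93 called higher with a known span (6.45%) and in 4.75% of all tested genes. The share of genes called lower went from 0.136% of those up to 10 kb to 1.99% at 100 to 200 kb, 2.24% at 200 to 500 kb and 5.47% of the 128 genes above 500 kb. The 7 lower genes above 500 kb include Dmd (2260 kb), Immp2l (931 kb) and Dpyd (871 kb) of those named above. Genes called higher showed 0.477% in the shortest class and 1.56%, or 2 genes, in the longest. The median log2 of all genes above 500 kb was -0.14 under sham and -0.04 under TAC. Under TAC 51 of 4403 genes up to 10 kb were called lower, beside 1.18% of all tested genes. The next classes held 60 of 4609, 41 of 4004, 14 of 1205 and 9 of 581. Above 500 kb it was 4 of 128, so the increase with span was smaller under TAC than under sham. The spans come from a GRCm38 annotation, and no test was made.

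**Figure D5:**
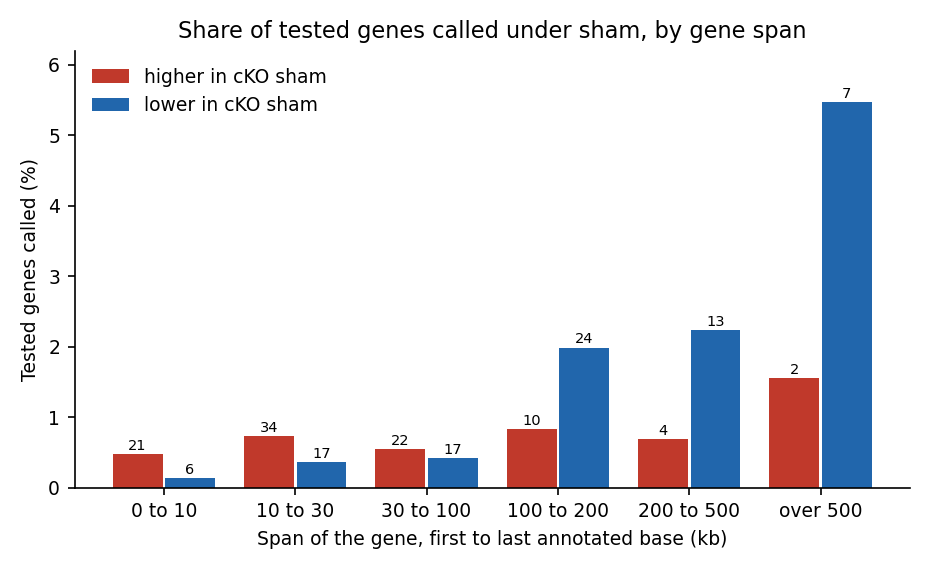
Share of tested genes (percent) called higher or lower in cKO sham in 6 classes of gene span, with the number of genes above each bar. The share called lower goes from 0.136% in the shortest class to 5.47% in the longest, which holds 7 such genes.

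Exons of 23 called genes overlap those of another tested gene, in 20 cases on the other strand. How reads in these overlaps were assigned is not stated. On the chromosome of Tfeb 7 other genes were called of 719 tested, the nearest being Crip3, 31 tested genes away (log2 1.75, adjusted p = 0.0139). Both genotypes are labelled with the same strain.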

How the data were processed

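Per the submitters' processing notes, the tools were fastp (0.22.0), HISAT2 (2.0.5), featureCounts (2.0.6) and SAMtools (1.21), and the build was GRCm39. The authors deposited raw counts per Ensembl gene, 1 column per library and without normalization. The annotation release, strandedness and treatment of multi-mapped reads are not given in the sources used here. Of 57186 gene IDs, 51880 had a symbol in a GRCm38 annotation, and these held 99.5% of counts. That annotation also gave gene spans, gene order and exon overlaps. Promoters are RefSeq windows of GRCm38.p6.

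Counts were fitted in R 4.3.3 with edgeR 4.0.16: filterByExpr (15206 genes kept), TMM factors, and 1 robust quasi-likelihood model with 1 mean for each of the 4 groups of 4 libraries (12 residual degrees of freedom). F-tests were adjusted by Benjamini-Hochberg over all tested genes for each contrast, with a threshold of 0.05 on the adjusted p. Log2 fold changes and their SE are those of the model, and levels are CPM (mean ± SD over 4 libraries). Single library measures were compared by two-sided exact permutation over 70 relabelings. Gene lists are described by counts and medians, with no test of a list.

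The alternatives were DESeq2 1.42.0 size factors, library totals, no filter on low counts, a minimum of 1 CPM in 4 libraries, limma 3.58.1 voom, the DESeq2 Wald test, the compared groups alone, a replicate block, the atrial sum as a covariate, and leaving out each library. On simulated data of 15050 genes for the sham contrast, 73% of 2-fold and 96% of 4-fold changes were recovered. Of 183 calls, 14 were unchanged genes. Counts were drawn independently for each gene from the fitted spread, and changes were placed in genes of at least 1 CPM. Differences that many genes of a library share were not simulated, so these shares need not hold for the real libraries.

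Named are 15 fixed genes, the 20 largest rises and 20 largest falls among called genes with a mean of at least 5 CPM in a group and no overlap of libraries, up to 4 called members of each of 61 gene lists, and the 10 most abundant called genes. Gm and Rik symbols and pseudogenes were skipped. Some genes that the rule picks are not reported here. The members, lists and rule were chosen with earlier results of these data known.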

Additional observations from a re-analysis of the deposited data

Results flagged for a closer look

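In 9 of 184 groups of 4 libraries examined, the highest or lowest library stood apart from the other 3 by Dixon's criterion at the 95% level, and chance alone flags about 1 in 20 groups. In WT sham replicate 3 this held for Nppa (1220 CPM, others 14.1 to 54.8), the summed atrial cardiomyocyte markers (4320 CPM, others 200 to 527), the sum of Myl4, Myl7, Sln and Bmp10 (2390 CPM, others 5.73 to 249) and, on the low side, Bckdhb (57 CPM, others 74.1 to 75.8). In cKO sham replicate 2 the same atrial sum was 22.8 CPM (others 4.17 to 6.84). Ctsd reached 1010 CPM in WT sham replicate 1 (others 504 to 537), Ppargc1a 331 CPM in WT sham replicate 2 (others 67.9 to 99.6) and Iigp1 107 CPM in WT sham replicate 4 (others 44.7 to 51.6). Adipocyte markers summed to 0.586 CPM in cKO sham replicate 1 (others 0.967 to 1.04).

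Leaving out the library in question did not end the call of Bckdhb (adjusted p = 0.00647 without WT sham replicate 3) or Iigp1 (0.00636 without WT sham replicate 4).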

How the results depend on the processing

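Under sham, 178 genes were called, 94 higher and 84 lower. Without a filter on low counts 135 were called lower, the DESeq2 Wald test called 546 (266 higher and 280 lower), and with the atrial sum as a covariate 110 were called, 52 of them higher. Leaving out single libraries gave 59 to 211 calls, 33 to 116 higher and 26 to 105 lower. Of the 178 calls, 178 were shared with the Wald test, 156 with voom, 149 with the unfiltered fit and 109 with a fit of the sham groups alone. Under TAC (271 calls, 180 lower), library totals gave 118 lower, no filter 438 and 312 lower, the Wald test 826 (291 higher and 535 lower) and the TAC groups alone 152 and 79 lower. Leaving out single libraries gave 13 to 912, with 2 to 289 higher and 11 to 623 lower. The interaction had 0 calls in edgeR under all alternatives run and 3 with the Wald test. Library totals moved the share of higher genes among TAC calls from 33.6% to 49.6%. For a check of pairing, each gene's group mean was subtracted from its log CPM. These deviations correlated from -0.04 to 0.08 between same-numbered WT sham and cKO sham libraries. None correlated best with its own number, so these values showed no pairing by number. A batch shared by libraries of the same number was not tested. A fit with the replicate number as a block called 235 genes (132 higher), 166 of them shared. Estimates near 0 changed sign: with the covariate Ctsd was -0.16 and Map1lc3b -0.07, and with single libraries left out Ctsd ran from -0.04 to 0.36, Map1lc3b from -0.04 to 0.08 and Ppargc1a from -0.74 to 0.34. The cause of these shifts was not tested. Of 1033 list medians over the alternatives, 53 moved by at least the SD of the list between the cKO sham libraries. The spread between WT sham libraries did not enter that SD.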

Other observations

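Several called genes outside the rule for named genes belong to small protein families, which were picked with their values in view. Of the 4 PDE4 phosphodiesterases, which degrade cyclic AMP near cardiac calcium channels, 3 were lower in cKO sham and 0 higher. Pde4a was at 145, 87.1, 135 and 114 CPM in WT and 77.2, 70, 76.4 and 59.3 CPM in cKO (log2 -0.77, adjusted p = 0.0195). Pde4b was at log2 -0.61 (adjusted p = 0.0381) and Pde4d at -0.64 (adjusted p = 0.0312), and neither pair of groups overlapped. Pde4c did not pass (log2 0.04, adjusted p = 0.954). Adcy5, a main adenylyl cyclase of the heart that makes cyclic AMP, was higher (129, 123, 138 and 111 CPM against 193, 152, 184 and 168 CPM, log2 0.47, adjusted p = 0.0164). Under TAC Adcy5 was again called at log2 0.47 (adjusted p = 0.021), while Pde4a (-0.50, adjusted p = 0.09), Pde4b (-0.21) and Pde4d (-0.39) did not pass.

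In the dystrophin complex 14 genes were tested, of which Dmd was lower and Sntb1 and Dtna were higher. Dtna, dystrobrevin, was at 52.8, 56.4, 54.6 and 55.4 CPM in WT and 77.0, 72.6, 73.8 and 75.8 CPM in cKO (log2 0.45, adjusted p = 0.0205), and the other 11, among them Utrn (0.07) and Dag1 (0.14), did not pass. At the intercalated disc, which joins cardiomyocytes end to end, Ctnna3 was lower (14.3, 17.0, 19.2 and 18.7 CPM against 10.0, 9.11, 7.14 and 8.50 CPM, log2 -0.99, adjusted p = 0.00117) and lower again under TAC (log2 -1.22, adjusted p = 0.000277). Tmem43, a nuclear envelope protein known from arrhythmogenic cardiomyopathy and set beside the disc proteins here, was higher (log2 0.71, adjusted p = 0.00312), and the other 7 of 9 genes did not pass. Of 9 exocyst subunits, which tether vesicles to the plasma membrane, Exoc4 was higher (37.1 to 44.1 CPM against 55.8 to 62.9 CPM, log2 0.54) and Exoc2 lower (17.6 to 21.3 CPM against 10.2 to 12.6 CPM, log2 -0.76), each with an adjusted p of 0.00117.

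Some of the steepest changes lay below the level of 5 CPM that the rule asks for. Snhg11, protein coding in the annotation used, was at 2.60, 1.19, 3.10 and 2.70 CPM in WT and 0.0651, 0.258, 0.223 and 0.138 CPM in cKO (adjusted p = 0.00149). The orphan receptor gene Rorb was at 1.16 to 2.88 CPM in WT and 0.223 to 0.582 CPM in cKO (adjusted p = 0.0227). Maats1 had no count in 2 of the 4 WT sham libraries and at most 0.0772 CPM in the others, and was at 0.847, 1.03, 1.26 and 1.45 CPM in cKO (adjusted p = 0.00117). It was also called higher under TAC (adjusted p = 0.0138).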
